A study of Mus musculus with 16 samples.

Results

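Transcripts of 10 immediate early response genes were followed in the epithelium of the mouse cecum under 4 states of colonization. The genes were Fos, Fosb, Jun, Junb, Egr1, Egr3, Ier2, Atf3, Dusp1 and Zfp36. Every probe set of the Mouse 430 2.0 GeneChip (a short-oligonucleotide microarray) that is annotated to 1 of these symbols was taken, which gave 12 probe sets of the 45101 on the GeneChip and all 10 genes. A probe set is the group of short oligonucleotides that together report on 1 transcript. Adult gnotobiotic mice of the NMRI strain, raised germ-free on an autoclaved chow rich in polysaccharides, were colonized for 10 days with Bacteroides thetaiotaomicron and Bifidobacterium longum together (Bt/Bl), with B. longum alone (Bl) or with B. thetaiotaomicron alone (Bt), and uncolonized mice (GF) were the controls. Epithelium was cut from frozen sections by laser capture. RNA of 4 mice per state was pooled and the pool amplified in duplicate, so that each state was read on 2 GeneChips. All values below are MAS5 signals, on a linear scale that cannot be compared between probe sets, and because both GeneChips of a state carried 1 pool, every p value below measures technical spread and compares pools, not mice (n = 2 GeneChips per state).

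Immediate early genes are transcribed within minutes of a stimulus from regulators that are already present in the cell, without new protein synthesis. Growth factors, cytokines, microbial products and stress can all induce them, and many of their transcripts are short-lived. Fos and Jun family proteins pair to form the AP-1 transcription factor, and the Egr proteins are zinc finger transcription factors. Dusp1 is a phosphatase that inactivates MAP kinases, and Zfp36 (tristetraprolin) binds AU-rich elements in transcripts and promotes their decay, so that both limit the response that induces them.

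The 8 GeneChips had been scaled to the same trimmed mean, and their median signals lay between 475 and 759. All 12 epithelium markers examined exceeded the floor of 144.7 on all 8 GeneChips, a floor placed at the 25th percentile of all values, and so did 5 of 11 leukocyte, 6 of 7 fibroblast, 4 of 5 plasma cell, 2 of 6 smooth muscle and 1 of 5 endothelium markers. No marker of these other cell types was under the floor on every GeneChip. The GF pool stood apart: Xist, an RNA of female cells, read 3753 to 11176 on the 6 GeneChips of colonized mice and 17157 and 22762 on those of GF, although the study describes the mice as male. Eif2s3y, a gene of the Y chromosome, read 3201 to 5657 in the colonized states and 71.3 and 614 in GF. Fabp6, which carries bile acids in ileal cells, read 1179 to 1798 in the colonized states and 68029 and 95108 in GF. The ratio of 3' to 5' signal of Gapdh, which depends on RNA integrity and amplification, was 8.93 to 17.6 in the colonized states, against 5.66 and 7.26 in GF. The same ratio of Actb went the other way, with 21.4 to 36.3 in the colonized states and 36.9 and 38.8 in GF.

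Tests were limited to probe sets with both duplicates of some state above 583.1, the median signal of the table. Of the 12 probe sets, 10 passed, and they covered 9 of the 10 genes, all but Fosb. Junb and the tested probe set of Egr3 passed only through Bl, the state where they are high, so their differences between Bl and other states, and every count below that includes them, are descriptions and no support for a difference. With the brightest probe set standing for each gene, 63 comparisons of the 9 genes were made with limma on the log2 scale and adjusted over all 24865 tested probe sets by Benjamini and Hochberg's method. None of the 63 passed an adjusted p of 0.05, and 14 had an unadjusted p under 0.05, a level that 7.39% to 12% of all tested probe sets reached in 1 direction or the other, depending on the comparison. The share of all tested probe sets that passed was itself low, 0.0483% between Bt/Bl and Bt, 0.0563% between Bt/Bl and Bl, 0.0442% between Bl and Bt, 0.197% between Bt/Bl and GF, 0.137% between Bl and GF, 0.169% between Bt and GF, and 0.113% for the departure of Bt/Bl from the summed effects of the mono-associations. In the F test over the 4 states, which 0.29% of all probe sets passed, 0 of 9 genes passed and 4 had an unadjusted p under 0.05 (13.8% of all probe sets did), namely Fos (adjusted p = 0.0930), Junb (0.241), Egr3 (0.327) and Zfp36 (0.358).

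**Figure D1:**
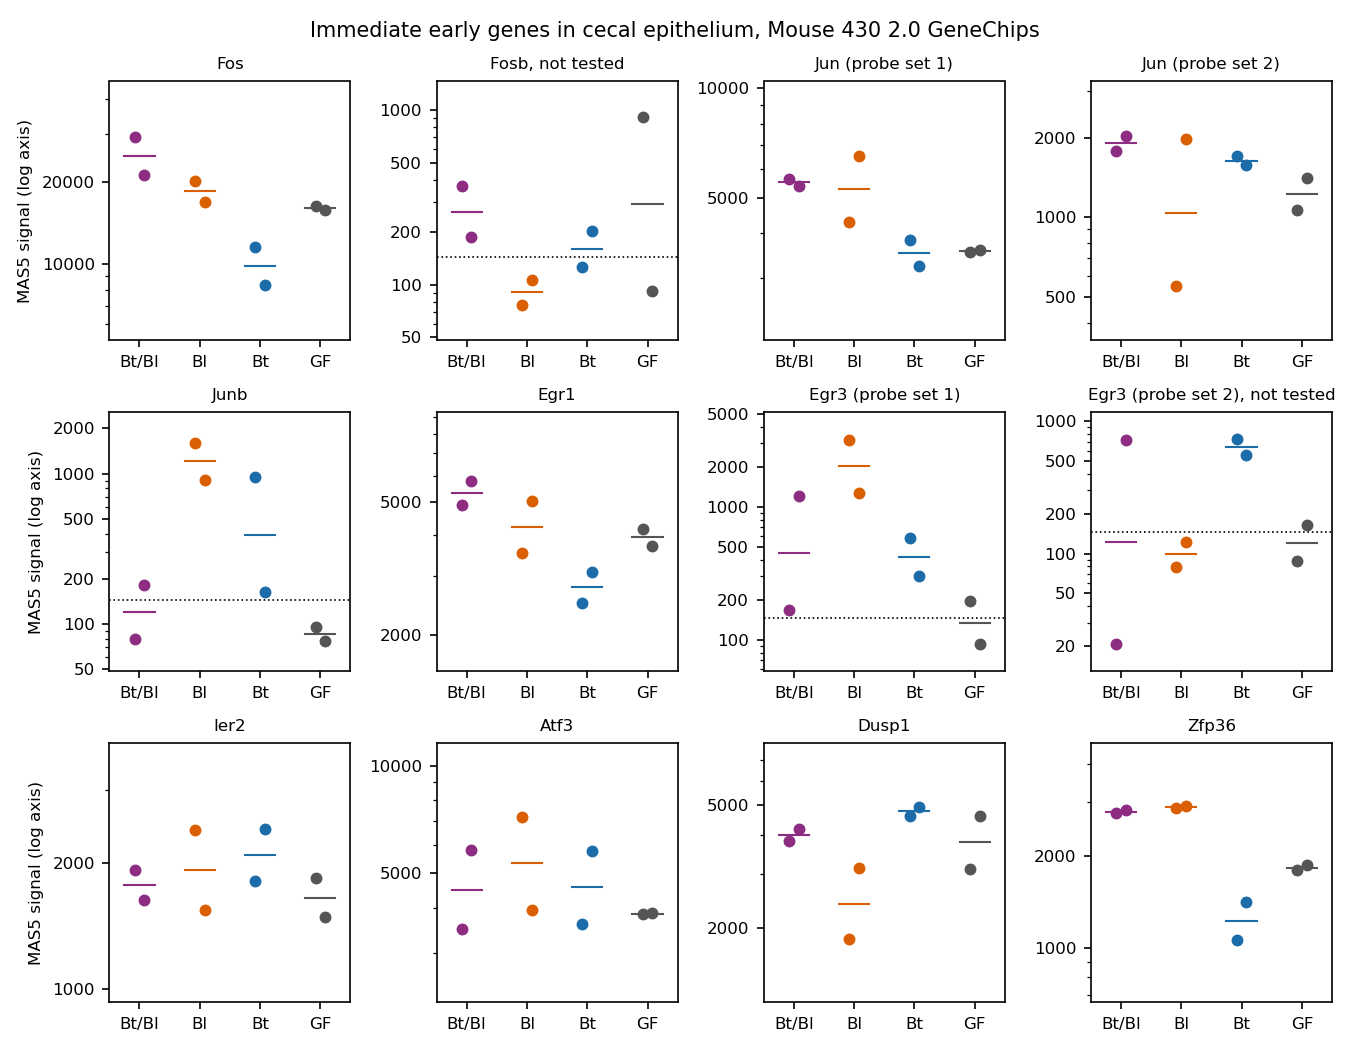
MAS5 signal (log axis) of each of the 12 probe sets on the 8 Mouse 430 2.0 GeneChips. Points are GeneChips, 2 per state, horizontal bars the geometric mean of a state, and the dotted line, where it lies within the axis, the floor of 144.7. Fos, Egr1 and Zfp36 were lowest in Bt on both GeneChips, while Junb and Egr3 (probe set 1) lay highest in Bl and near the floor in GF.

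Fos, the founding partner of AP-1, was the gene closest to the threshold. Its signal was 29073 and 21229 in Bt/Bl, 20163 and 16847 in Bl, 11544 and 8392 in Bt, and 16253 and 15733 in GF. On the signals as deposited, the 4 states did not overlap in Fos, with Bt/Bl highest, then Bl, then GF, and Bt lowest. Between Bt/Bl and Bt, the mean was 25151 ± 5546 and 9968 ± 2229 (SD, n = 2 each), a log2 difference of 1.34 (standard error 0.24, 90% confidence interval 0.91 to 1.76) or 2.52-fold, with an adjusted p of 0.0983. By its p value this difference ranked at position 15 of 24865. A bulk signal cannot tell fewer expressing cells apart from less transcript per cell. With only the Bt/Bl and Bt GeneChips in the fit the adjusted p was 0.0334, without Bt GeneChip 9130 it was 0.0469, and over all 19 alternatives it lay between 0.0334 and 0.601, with the log2 difference between 1.11 and 1.57.

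The other differences of Fos were smaller. Bl exceeded Bt by 0.90 on the log2 scale (standard error 0.24, adjusted p = 0.167). Bt lay below GF, with a log2 difference of -0.70 (standard error 0.24, adjusted p = 0.344), and Bt/Bl lay above GF by 0.64 (adjusted p = 0.541). The neighbours Bt/Bl and Bl, at 0.43, and Bl and GF, at 0.20, had adjusted p values of 0.521 and 0.780 and were not told apart by the test. The order of Bl and GF depended on the scaling. Their difference was -0.14 with GeneChips scaled to the same median and -0.05 with scaling to the same 75th percentile.

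Jun, the main partner of Fos in AP-1, is represented by a pair of probe sets that both passed. The brighter read 5647 and 5394 in Bt/Bl, 4281 and 6533 in Bl, 3828 and 3237 in Bt, and 3547 and 3580 in GF. Both GeneChips of Bt/Bl, and both of Bl, were above all 4 of Bt and GF, by 0.65 between Bt/Bl and Bt (standard error 0.32, adjusted p = 0.512) and 0.57 between Bl and GF (adjusted p = 0.523). The second Jun probe set did not repeat the Bl signal: it read 1776 and 2038 in Bt/Bl, 549 and 1980 in Bl, 1699 and 1574 in Bt, and 1069 and 1406 in GF, and gave a log2 difference of -0.23 between Bl and GF (adjusted p = 0.923).

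Junb, a Jun relative whose pairs often drive weaker transcription than those of Jun, had another order of states. It read 79.6 and 180.4 in Bt/Bl, 1597 and 914 in Bl, 945 and 164 in Bt, and 94.9 and 77.3 in GF, so that both GF GeneChips and 1 of Bt/Bl were under the floor. Both Bl GeneChips were above the 4 of Bt/Bl and GF, and Bt was split, with 1 GeneChip near Bl and 1 near the floor. Bl was at least 8.35-fold above GF, taken against the floor (log2 difference 3.06, standard error 0.86, adjusted p = 0.187), and Bt/Bl differed from Bl by -2.90 (standard error 0.86, adjusted p = 0.205). The filter was met through Bl alone, so that these differences were selected by the high Bl signal.

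Fosb, the Fos relative that was not tested, read 368 and 187 in Bt/Bl, 76.8 and 107 in Bl, 126 and 203 in Bt, and 916 and 92.7 in GF. Both Bl GeneChips, 1 of Bt and 1 of GF were under the floor, and the 2 GF duplicates held both the highest signal and 1 of the lowest.

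A second GeneChip type, the custom GlycoGeneChip for genes of carbohydrate biology, carried a Junb probe set and was hybridized with epithelium of the same 4 states. It read 693 and 114 in Bt/Bl, 344 and 2401 in Bl, 1003 and 110 in Bt, and 1111 and 807 in GF. Duplicates of a state differed 6.10-fold in Bt/Bl, 6.97-fold in Bl, 9.16-fold in Bt and 1.38-fold in GF, and the states overlapped except that both GF GeneChips were above both of Bt/Bl. The probe set did not pass the same filter there and was not tested. Its GF signals, close to the table's median of 860, stood against GF signals under the floor on the Mouse 430 2.0.

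**Figure D2:**
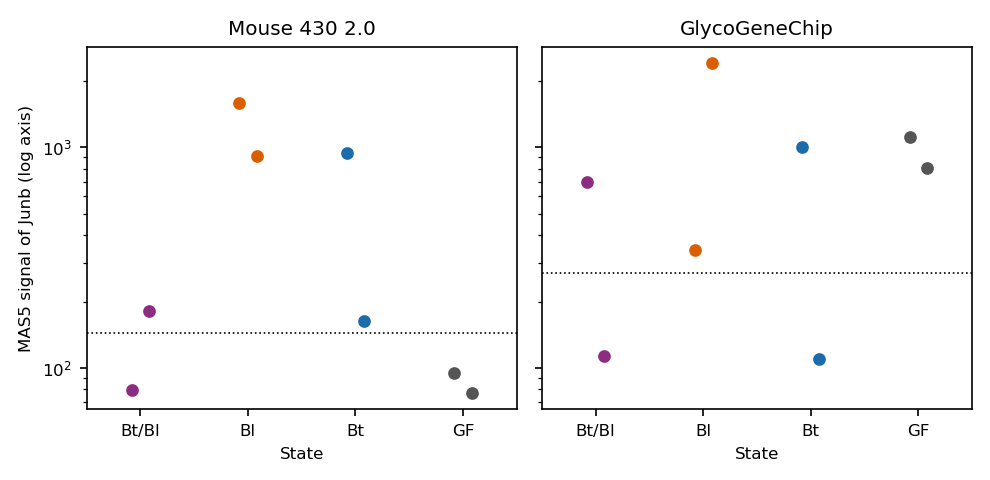
MAS5 signal of Junb (log axis) on the Mouse 430 2.0 (left) and the GlycoGeneChip (right), 2 GeneChips per state. Dotted lines mark the 25th percentile of all values of each table (144.7 and 268.1). The low GF signals on the left are not seen on the right, and duplicates of the colonized states lie far apart on the right.

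Egr1, a zinc finger factor induced through serum response factor, followed the order of Fos. Its signal was 4910 and 5804 in Bt/Bl, 3514 and 5051 in Bl, 2490 and 3097 in Bt, and 4167 and 3697 in GF. Both Bt GeneChips were below the 6 others, and Bl overlapped with Bt/Bl and with GF. Bt/Bl exceeded Bt by 0.94 (standard error 0.34, adjusted p = 0.327), or 1.92-fold, and Bt differed from GF by -0.50 (adjusted p = 0.697).

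Egr3, its relative, resembled Junb instead. The tested probe set read 167 and 1206 in Bt/Bl, 3188 and 1268 in Bl, 582 and 303 in Bt, and 195 and 92.6 in GF. Both Bl GeneChips were above all others, but the duplicates of Bt/Bl lay far apart, and 1 of GF was under the floor. Bl exceeded GF by 3.58 (standard error 1.07, adjusted p = 0.207), and Bt/Bl differed from Bl by -2.16 (standard error 1.07, adjusted p = 0.450), differences that the filter, met through Bl alone, had likewise selected. A second Egr3 probe set, which did not pass the filter, had its Bl signals under the floor (79.7 and 122), and read 20.5 and 724 in Bt/Bl, 730 and 552 in Bt, and 87.5 and 165 in GF. The 2 probe sets therefore did not give Egr3 the same highest state.

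Ier2 and Atf3 varied least between states. Ier2, a nuclear protein of the early response, read 1927 and 1631 in Bt/Bl, 2405 and 1547 in Bl, 1809 and 2416 in Bt, and 1838 and 1486 in GF. Atf3, a stress-induced member of the ATF/CREB family that can act as a repressor, read 3483 and 5806 in Bt/Bl, 7204 and 3943 in Bl, 3610.1 and 5780.4 in Bt, and 3844 and 3865 in GF. All states overlapped in Ier2, and in Atf3 only Bl and GF did not. Between Bt/Bl and Bt the log2 difference was -0.24 for Ier2 (90% interval -1.12 to 0.64) and -0.02 for Atf3 (-0.69 to 0.64), and both intervals include 0.

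Dusp1 and Zfp36, the feedback genes, went different ways. Dusp1 read 3834 and 4191 in Bt/Bl, 1840.4 and 3138 in Bl, 4610.1 and 4947 in Bt, and 3118 and 4602 in GF. Both Bt GeneChips were above the 6 others, but the lower of them barely exceeded the higher GF GeneChip (4610.1 against 4601.8). Bt differed from GF by 0.33 (standard error 0.37, adjusted p = 0.830), and 1 Bl GeneChip was the lowest of all. Bl differed from Bt by -0.99 (standard error 0.37, adjusted p = 0.278). Zfp36 read 2747 and 2823 in Bt/Bl, 2864 and 2909 in Bl, 1059 and 1414 in Bt, and 1795 and 1859 in GF, with Bt/Bl and Bl close together and Bt lowest. Its log2 difference was 1.19 between Bt/Bl and Bt (standard error 0.45, adjusted p = 0.357) and 1.24 between Bl and Bt (standard error 0.45, adjusted p = 0.266). Between Bt and GF it was -0.58 (adjusted p = 0.748).

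The comparison of Bt/Bl with Bt asks what B. longum added in mice that carried B. thetaiotaomicron. Fos, Jun, Egr1 and Zfp36 were higher on both Bt/Bl GeneChips than on both Bt GeneChips, which makes 4 of 9 genes, while 20.7% of all tested probe sets were separated in this direction. Dusp1 was lower, 1 of 9 genes against 22.3%. At an unadjusted p under 0.05 there were 3 higher, Fos, Egr1 and Zfp36, beside 4.95% of all probe sets, and 0 lower, beside 5.53%. The median of the 9 log2 differences was 0.10, and the median of all 12937 tested genes was 0.00. That median moved between -0.12 (without Bt/Bl GeneChip 9133) and 0.65 (filter at the 75th percentile, which removes Junb and Egr3).

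Other measures moved with these 4 genes. Of 12 epithelium markers 9 had positive log2 differences between Bt/Bl and Bt and 3 negative ones, while their summed signals overlapped. At an unadjusted p under 0.05, 2 were higher, Epcam (0.82, adjusted p = 0.284) and Cdh1 (0.64, adjusted p = 0.474), and 0 lower. Summed leukocyte marker signal was 12656 and 12299 in Bt/Bl against 18594 and 16826 in Bt, and smooth muscle marker signal 4905 and 5614 against 14836 and 8877. Fibroblast marker signal was 19619 and 19994 against 27164 and 28615, and plasma cell marker signal 149328 and 136105 against 107377 and 91063. By gene, 4 of 6 leukocyte, 3 of 4 smooth muscle and 4 of 7 fibroblast markers had negative log2 differences, and the others positive ones. All 5 plasma cell markers were positive, with Igha at 1.71 (adjusted p = 0.00834, passed) and Jchain at 2.19 (adjusted p = 0.0983). The 3' to 5' ratio of Gapdh was 15.6 and 12.6 in Bt/Bl against 11.8 and 8.93 in Bt, while that of Actb overlapped, with 32.9 and 26.1 against 23.2 and 36.3. The part of these measures in the differences was not tested. Without both GF GeneChips, an alternative chosen after seeing the data, the difference of Fos had an adjusted p of 0.140 and its size was unchanged at 1.34.

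**Figure D3:**
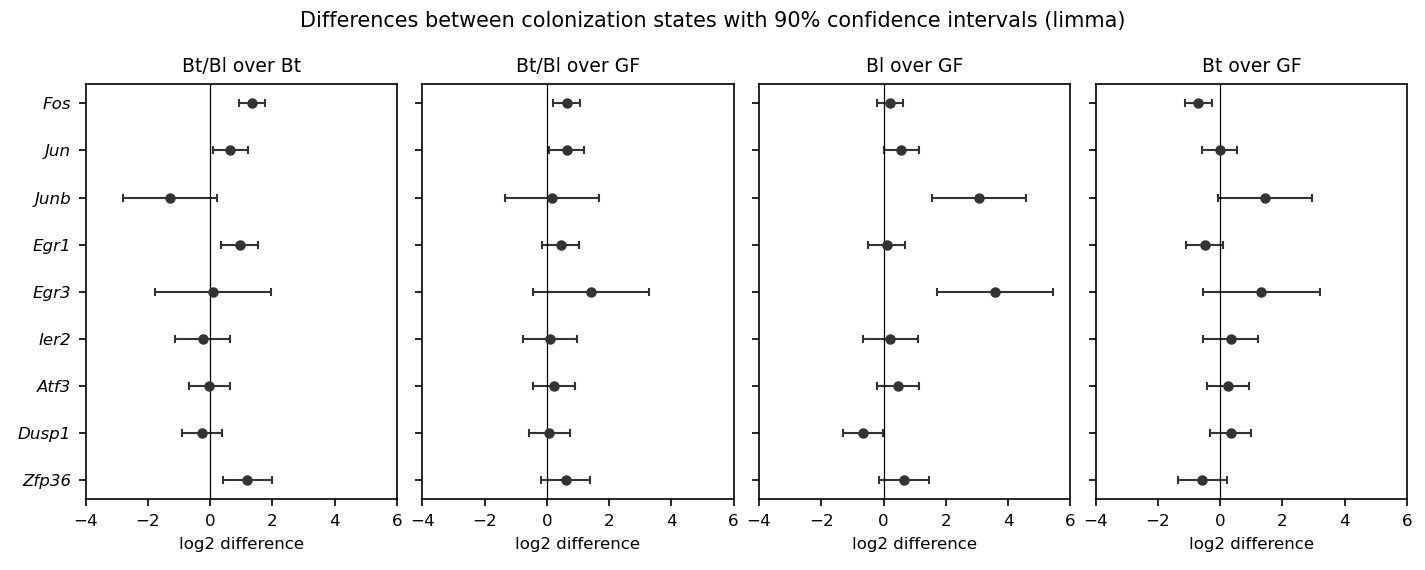
Log2 difference of each tested gene with its 90% confidence interval from limma in 4 of the comparisons. The vertical line marks no difference. Fos, Jun, Egr1 and Zfp36 have intervals above 0 between Bt/Bl and Bt, and Junb and Egr3 have the widest intervals in every panel.

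Against GF the sets of genes differed by state. Between Bt/Bl and GF, 4 of 9 genes were higher on both GeneChips (Fos, Jun, Egr1 and Zfp36), while 21.2% of all probe sets were, and 0 were lower, while 19.8% were. Between Bl and GF, 6 of 9 were higher (Fos, Jun, Junb, Egr3, Atf3 and Zfp36), while 23.9% of all probe sets were, and 0 were lower, while 17.5% were. The place of Fos among these 6 depended on the scaling, as given above. In Bt, 3 genes were higher than in GF (Junb, Egr3 and Dusp1), with 21.6% of all probe sets in that direction, and 3 were lower (Fos, Egr1 and Zfp36), with 18.4%. At an unadjusted p under 0.05, Fos was higher in Bt/Bl (4.01% of all probe sets) and 0 genes were lower (3.38%). At that level Junb and Egr3 were higher in Bl (6.5%) and 0 genes lower (5.22%), and in Bt 0 genes were higher (5.12%) and Fos was lower (4.36%). The fold criterion of the study, a lower 90% bound of the fold over 2 and a signal difference over 10, was applied to limma intervals, without its criteria on calls and replicate variation. By it, 2 genes were higher in Bl than in GF (Junb and Egr3), beside 2.26% of all probe sets, and both are genes that had entered the tests only through Bl. All 3 comparisons share the GF pool, which stood apart as described above. Plasma cell marker signal was 91063 to 149328 in the colonized states, against 214702 and 198012 in GF, and fibroblast marker signal 13677 to 28615, against 37365 and 31002. Of the plasma cell markers, Igha was lower than in GF by a log2 difference of -3.05 in Bt (adjusted p = 7.73e-06), -1.97 in Bl (0.00072) and -1.34 in Bt/Bl (0.0202). Jchain was lower in Bt, at -3.00 (adjusted p = 0.00345). In all, 4 of 5 plasma cell markers were negative in Bt, 5 of 5 in Bl and 3 of 5 in Bt/Bl. Their summed signal included Sdc1 and Xbp1, which were high on every GeneChip as given above. Leukocyte marker signal was 18594 and 16826 in Bt, against 11385 and 11099 in GF, and smooth muscle marker signal 14836 and 8877, against 6455 and 5748. By gene, 5 of 6 leukocyte and 3 of 4 smooth muscle markers had positive log2 differences between Bt and GF. Of the 7 fibroblast markers 0 had a positive log2 difference between Bl and GF, with a median of -0.97. Between Bt and GF, 8 of 12 epithelium markers had negative log2 differences and 4 positive ones. At an unadjusted p under 0.05, Epcam (-0.78, adjusted p = 0.321) and Cdh1 (-0.73, adjusted p = 0.434) were lower in Bt, and Krt18 higher (0.59, adjusted p = 0.382). The part of these measures in the differences was not tested. The median log2 difference of the 9 genes was 0.44 between Bt/Bl and GF, 0.47 between Bl and GF and 0.25 between Bt and GF.

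Between the 2 mono-associations, 5 of 9 genes were higher in Bl than in Bt on both GeneChips (Fos, Jun, Egr1, Egr3 and Zfp36), while 20.1% of all probe sets were, and Dusp1 was lower, while 17.9% were. Fos and Zfp36 were higher and Dusp1 lower at an unadjusted p under 0.05, beside 6.4% and 5.49% of all probe sets in those directions. The median log2 difference was 0.60, and over the alternatives it lay between 0.47 and 0.86. Fibroblast marker signal was 19279 and 13677 in Bl against 27164 and 28615 in Bt, and smooth muscle marker signal 6398 and 5804 against 14836 and 8877. Leukocyte marker signal was 14397 and 8054 against 18594 and 16826. By gene, 5 of 7 fibroblast, 3 of 4 smooth muscle and 4 of 6 leukocyte markers had negative log2 differences, and the others positive ones. The part of these markers was not tested. Between Bt/Bl and Bl, Fos and Dusp1 were higher (18.9% of all probe sets) and Junb, Egr3 and Zfp36 lower (23.7%), with the whole difference of Zfp36 at -0.05. Junb was the 1 gene lower at an unadjusted p under 0.05 there, beside 6.37% of all probe sets, and 0 were higher, beside 5.4%. Junb was also the 1 gene lower by the fold criterion, beside 2.22%.

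The last comparison asks whether Bt/Bl departed from the sum of both mono-associations, each taken against GF on the log2 scale. Fos exceeded that sum by 1.13 (standard error 0.34, adjusted p = 0.218). Junb fell short of it, with an excess of -4.35 (standard error 1.21, adjusted p = 0.207), and so did Egr3, with -3.49 (standard error 1.51, adjusted p = 0.375). At an unadjusted p under 0.05 these were 1 higher (5.34% of all probe sets) and 2 lower (6.69%) of 9 genes, and by the fold criterion 1 was lower, Junb, beside 3.33% of all probe sets. The excess of Junb lay between -5.61 and -1.40 over the alternatives, and both of its GF signals were under the floor.

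The profiles over the 8 GeneChips fell into a few shapes. With each gene centred on its own mean log2 signal, the closest pairs by root mean square difference were Jun and Egr1 (0.26), Egr1 and Zfp36 (0.29), Ier2 and Atf3 (0.30), and Fos and Zfp36 (0.33). Junb and Egr3 were 0.94 apart and each was at least 1.31 from every other gene. Dusp1 was nearest to Ier2, at 0.57. Of the genes that are no members, Gm16793 (0.18), Asb6 (0.19), Sowahc (0.20), Plek2 (0.20) and Alg9 (0.23) were nearest to Fos. Nearest to the mean profile of the 9 genes were Ccdc184 (0.15), Iftap (0.16), Slc22a18 (0.16), Nars2 (0.17) and Orc4 (0.18). These distances rest on 8 GeneChips of 4 pools and are descriptions.

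**Figure D4:**
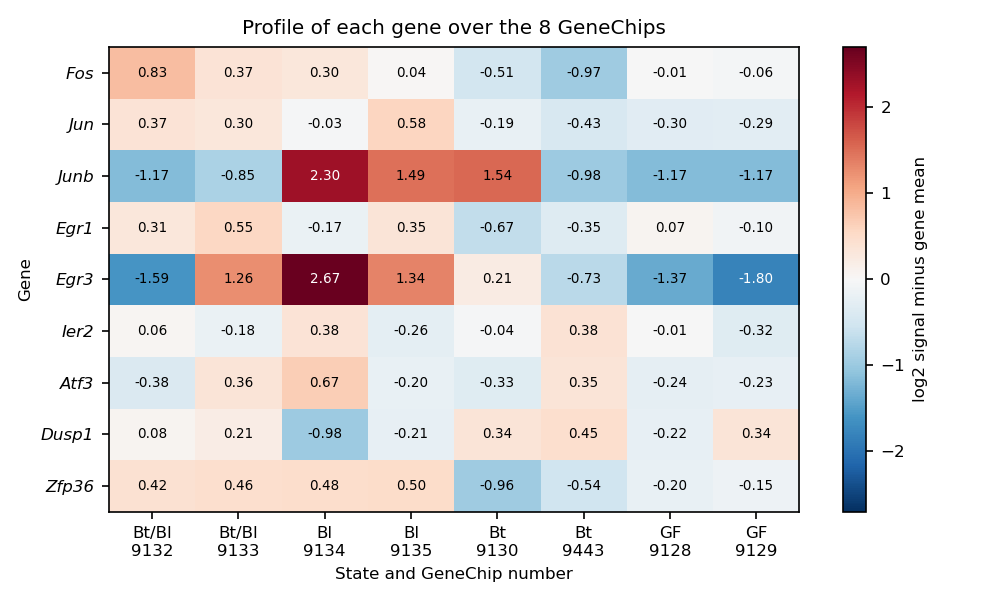
Centred log2 signal of the 9 tested genes on the 8 GeneChips, with red above and blue below the mean of the gene. Fos, Egr1 and Zfp36 are blue on both Bt GeneChips, and Junb and Egr3 have their darkest red on Bl GeneChip 9134.

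GeneChip 9134, where Junb, Egr3 and Atf3 all had their highest signal, also had the highest median signal of the 8 (759, against 475 to 654 on the others). When every GeneChip was scaled to the same median, which moved GeneChips by up to 0.68 on the log2 scale relative to each other, the median difference of the 9 genes between Bl and GF was 0.12. Junb and Egr3 changed little by this scaling, to 2.88 and 3.40 from 3.06 and 3.58 between Bl and GF. Fos (-0.14), Egr1 (-0.24) and Ier2 (-0.12) turned negative.

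Fos and Zfp36, which had like profiles, and Dusp1, which did not share theirs, are shown with the 250 bases before their annotated start (RefSeq, GRCm38.p6). This stretch can hold sites through which signals from MAP kinases and cAMP reach such genes, but sites further from the start lie outside it. RefSeq windows were matched for 7 of the 10 genes, all but Egr1, Egr3 and Ier2. The windows lie at chr12:85473640-85473889 on the plus strand for Fos, chr7:28379229-28379478 on the minus strand for Zfp36 and chr17:26508473-26508722 on the minus strand for Dusp1. Capitals mark the motifs found, read 5′ to 3′ along the gene.
Fos: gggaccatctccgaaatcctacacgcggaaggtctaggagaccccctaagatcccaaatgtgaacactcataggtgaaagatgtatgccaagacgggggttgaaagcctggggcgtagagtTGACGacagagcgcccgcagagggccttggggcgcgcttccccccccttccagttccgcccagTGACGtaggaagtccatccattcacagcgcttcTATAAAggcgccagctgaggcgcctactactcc
Zfp36: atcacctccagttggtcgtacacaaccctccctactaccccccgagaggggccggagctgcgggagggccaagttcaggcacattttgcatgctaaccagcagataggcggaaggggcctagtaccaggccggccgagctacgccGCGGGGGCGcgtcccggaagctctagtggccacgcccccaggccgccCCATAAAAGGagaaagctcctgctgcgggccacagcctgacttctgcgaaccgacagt
Dusp1: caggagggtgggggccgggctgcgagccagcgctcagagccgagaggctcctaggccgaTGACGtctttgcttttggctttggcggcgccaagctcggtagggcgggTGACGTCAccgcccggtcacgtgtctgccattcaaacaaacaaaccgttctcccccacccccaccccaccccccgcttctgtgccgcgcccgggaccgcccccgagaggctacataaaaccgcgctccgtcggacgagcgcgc

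Each motif was searched on both strands in these windows and in 32851 windows of the same length. The cAMP response element TGACGTCA was found in 1 of the 7 windows, that of Dusp1, starting 143 bases before the start, and in 1.55% of all windows. Its core TGACG, which every full element contains, was found in 5 of 7 (Fos, Fosb, Junb, Atf3 and Dusp1) and in 17.8% of all, and in Fos it lay 129 and 66 bases before the start. An EGR site, GCGTGGGCG or GCGGGGGCG, was found in 2 of 7 (Fosb and Zfp36) and in 3.06% of all. The CArG box of serum response factor was found in 1 of 7, 58 bases before the start of Zfp36, and in 1.47% of all. A TATAAA was found in 1 of 7, 33 bases before the start of Fos, and in 12.4% of all, and the AP-1 site TGACTCA or TGAGTCA in 0 of 7 and in 4.46% of all. A match is a description of the letters and not a bound site, and a motif not found in a window may lie outside it.

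Related genes were counted from lists of the same response. None of their tested genes passed an adjusted p of 0.05 in any of the 7 comparisons. Between Bt/Bl and Bt, the other AP-1 and CREB/ATF genes had 11 of 14 tested, with 1 higher at an unadjusted p under 0.05, Fosl2 (log2 difference 0.62, adjusted p = 0.443), 0 lower and a median of 0.15. The other immediate early transcription factors, such as Myc, Klf and Nr4a genes, had 10 of 17 tested, with 0 at that level and a median of -0.12. Of the immediate early effectors, such as Gadd45, Btg and Ier genes, 22 of 27 were tested, with 2 higher, 2 lower and a median of 0.47. The 2 higher were Sgk1, a kinase of sodium transport (0.73, adjusted p = 0.439), and Pim1, a survival kinase (1.93, adjusted p = 0.449). The 2 lower were Gadd45g (-2.59, adjusted p = 0.310) and Gadd45b (-1.57, adjusted p = 0.174). Gadd45g passed the filter only through Bl and Bt, where it is high, so its difference is a description.

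Of the other dual specificity phosphatases, Sprouty and Spred genes, 11 of 14 were tested in this comparison, with 0 at that level and a median of -0.50. The other proteins that bind AU-rich elements had 7 of 7 tested, with 1 lower, Zfp36l1, a relative of Zfp36 (-0.81, adjusted p = 0.417), and a median of -0.03. The upstream genes (serum response factor, its cofactors and MAP kinases) had 13 of 22 tested, with 1 higher, Map2k1, the kinase that activates ERK (0.67, adjusted p = 0.460), and a median of -0.05. Beside these counts, 643 of the 12937 tested genes were higher and 675 lower at an unadjusted p under 0.05.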

How the data were processed

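Duplicate amplifications of 1 RNA pool of 4 mice per state were read by the authors on Mouse 430 2.0 GeneChips, and the deposited values are MAS5 signals per probe set (tool named in the submitters' processing notes), with a trimmed mean of 1500 on every GeneChip. A custom GlycoGeneChip table of deposited signals was used for Junb only. Detection calls were not used here, and the study's own analysis used dChip, so its criteria on calls were left out. Probe sets were named from the platform annotation (34958 with 1 symbol, 932 with several, 9211 with none).

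Signals under the 25th percentile (144.7) were raised to it before taking log2. A probe set entered the tests if some state had both duplicates over the median (583.1). Control probe sets were excluded. All 8 GeneChips entered 1 fit in limma 3.58.1 (R 4.3.3; lmFit, eBayes with an intensity trend, 4 residual degrees of freedom), with Benjamini-Hochberg adjustment in each comparison and a threshold of 0.05. The steps were tested on simulated data. The number of GeneChips limits the precision. All 10 genes and every probe set of each are named, and of other lists the genes called or, chosen after their values were seen, those under an unadjusted p of 0.05. The members and lists were chosen with earlier results of these data known. Promoters came from RefSeq tables. Alternatives concerned scaling, floor, filter, spread model, choice of probe set, call rule, the states in the fit and leaving out each GeneChip. The bacterial GeneChips and qRT-PCR were not analysed here.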

Additional observations from a re-analysis of the deposited data

How the results depend on the processing

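No member passed in any comparison with the planned settings of the fit, and this count differed under 3 alternatives. With the study's fold criterion (lower 90% bound of the fold over 2 and a signal difference over 10) it was 2 between Bl and GF (2.26% of all probe sets higher), 1 between Bt/Bl and Bl (2.22% lower) and 1 for the departure from the summed mono-associations (3.33% lower). With only the GeneChips compared it was 2 between Bl and GF (Junb and Egr3), 1 between Bt/Bl and Bt (Fos) and 1 between Bt/Bl and Bl (Junb). Junb and Egr3 were admitted to the tests only by their Bl signals, so these counts give no support for a difference of Bl. With 1 GeneChip left out it was 0 to 1 between Bt/Bl and Bt, the 1 being Fos without Bt GeneChip 9130 (adjusted p = 0.0469), and 0 in the other comparisons. Of the single-gene values under alternatives, 1127 kept their direction and side of the threshold or were uncalled before and after, 5 passed anew, 0 called values turned, and 44 uncalled values changed sign. The causes were not tested.

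The median log2 difference of the members kept its sign between Bl and GF (0.12 to 0.62), between Bt/Bl and GF (0.22 to 0.56) and between Bl and Bt (0.47 to 0.86). It changed sign under some alternatives between Bt and GF (-0.02 to 0.25), Bt/Bl and Bt (-0.12 to 0.65), Bt/Bl and Bl (-0.07 to 0.24), and for that departure (-0.07 to 0.58). Signals near the floor limit Junb and Egr3. No paired analysis was possible because the GeneChip numbers are not shared between states.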

Other observations

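Among the immediate early effectors, Gadd45g and Gadd45b, stress sensors that act on MAP kinase signalling and growth arrest, had profiles that set Bt/Bl below both mono-associations. They were chosen after their values were seen. For the excess over the sum of both mono-associations, 4 of 22 tested effectors were higher and 3 lower at an unadjusted p under 0.05. The 4 higher were Pim1 (3.46), Btg1 (1.04), Sgk1 (0.97) and Rhob (0.76), and the 3 lower were Gadd45g, Gadd45b and Gadd45a. Of all 22, 13 were positive and 9 negative, with a median of 0.23. Over all 12937 tested genes, 759 were higher and 766 lower at that level. Gadd45g read 73.6 and 73.9 in Bt/Bl, 2359 and 1293 in Bl, 992 and 764 in Bt, and 116 and 223 in GF, with both Bt/Bl GeneChips and 1 of GF under the floor. Its excess over the sum of both mono-associations was -5.87 on the log2 scale (standard error 1.23, adjusted p = 0.118). Gadd45g passed the filter only through Bl and Bt, the states where it is high. Its excess was therefore selected by the filter and, with its p values, is a description and no support for a departure from the sum. Because of the signals under the floor this value depends on the floor, with -7.00 for a floor at 16 and -2.16 for a floor at the median. The adjusted p lay between 0.0475 (without Bl GeneChip 9135) and 0.691 over the alternatives. Gadd45b read 2282 and 3163 in Bt/Bl, 11090.3 and 6617 in Bl, 11469 and 5548 in Bt, and 3759 and 5367 in GF, and its excess was -2.50 (standard error 0.54, adjusted p = 0.128, between 0.0743 and 0.691).

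Heat shock genes, chaperones that protein damage induces and a list examined beside the immediate early genes, lay on the other side of the sum. For the excess, 8 of 11 tested genes were higher and 1 lower at an unadjusted p under 0.05, and 0 passed an adjusted p of 0.05. Over all 12937 tested genes 759 were higher and 766 lower at the unadjusted level. In the same comparison 5 of 5 plasma cell markers were positive and 2 passed, Igha (3.68, adjusted p = 5.15e-05) and Jchain (3.77, adjusted p = 0.0145), and their part in the values of the chaperones was not tested. The median excess of the heat shock genes was 1.29, against -0.01 over all tested genes, and it lay between 1.04 (quantile normalization) and 1.80 (scaling to the same median). Another list, the unfolded protein response genes, had 9 positive and 2 negative excesses among 11 tested genes, with a median of 0.74. At an unadjusted p under 0.05, 3 of them were higher and 0 lower. Hsph1, an exchange factor of the Hsp70 chaperones, read 10818 and 9514 in Bt/Bl, 1974 and 7355 in Bl, 3767 and 4169 in Bt, and 11865 and 11373 in GF (excess 2.96, standard error 0.61, adjusted p = 0.118). In Hspa1b, an inducible Hsp70, GF was above all other states, with 17697 and 16315 in Bt/Bl, 11737 and 15049.6 in Bl, 14516 and 11476 in Bt, and 26917 and 32433 in GF (excess 1.55, standard error 0.33, adjusted p = 0.122). Every excess uses the GF pool, which stood apart in Xist, Fabp6 and the 3' to 5' ratio of Gapdh, and its part in these values was not tested.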
